A study of Mus musculus with 2 samples.

Results

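Granule lineage neuroblasts and progenitors are the young cells of the adult dentate gyrus that are on the way to becoming granule neurons. They were taken from 2 droplet single-cell RNA libraries of mouse hippocampus among barcodes that had 300 or more genes and no more than 10% of mitochondrial UMIs (unique molecular identifiers, which tag single captured molecules). Members were chosen by their transcripts, so the levels of the genes used describe the choice. A member had at least 1 UMI of Neurod1 or Eomes and UMIs of at least 3 of the 7 genes Neurod1, Eomes, Dcx, Sox11, Igfbpl1, Tac2 and Tubb3. It had no UMI of Reln, Dlx1 or Dlx2, and at most 2 UMIs in all of Cldn5, Vtn, Mog, Aqp4 and C1qa, which mark vessel cells, oligodendrocytes, astrocytes and microglia. This gave 55 of 11605 kept cells, 19 of 5278 in the Mr1-/- library and 36 of 6327 in the Mr1+/+ library. Mr1-/- mice lack Mr1, an MHC-like molecule that shows microbial metabolites to mucosal-associated invariant T cells, and Mr1+/+ mice carry it. All animals were 7 months old and untreated, and the sources used here do not state how many were pooled. The series title describes its cells as other than neurons, whereas these cells carried transcripts of the neuronal lineage. Dissociated hippocampal cells were sorted as live and nucleated (negative for DAPI, which enters dead cells, and positive for the DNA dye Draq5) and captured with a 10x Genomics 5' kit. Each genotype has a single library, so no difference below was tested against replicates, and differences between mice, dissections and library preparations cannot be told apart from genotype.

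In the subgranular zone, radial glia-like stem cells give rise to intermediate progenitors that express the T-box factor Eomes (Tbr2), divide, and then switch on the proneural factor Neurod1. Their daughters become Dcx-positive neuroblasts that pass through a Calb2 (calretinin) stage, keep the granule cell factor Prox1, and later acquire mature granule neuron genes. Neuroblasts made in the subventricular zone instead depend on Dlx factors and become GABAergic interneurons.

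The libraries held 5347 Mr1-/- and 6410 Mr1+/+ barcodes with 18349132 and 23244575 UMIs. They shared 44 barcode sequences, and 0 of the 55 granule lineage barcodes occurred in the other library. The median granule lineage cell had 4857 UMIs (range 2212 to 11186) in the Mr1-/- library and 4678.5 (range 1117 to 7203) in the Mr1+/+ library, against medians of 2951.5 and 3184 over all kept cells. Scrublet, a doublet caller, called 176 of the kept Mr1-/- cells and 323 of the kept Mr1+/+ cells, and 0 of the 55 granule lineage cells. Mr1 (chromosome 1, 155127277 to 155146814, minus strand, mm10) had 2 UMIs over all kept Mr1-/- cells and 138 over all kept Mr1+/+ cells. Granule lineage cells held 1 Mr1 UMI (Mr1-/-) and 0 (Mr1+/+).

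The 7 genes that chose the cells are described without a test. Neurod1 (chromosome 2, 79452521 to 79456751, minus strand), a basic helix-loop-helix factor of granule neuron differentiation, ranged over 0 to 13 UMIs per cell (median 3) in Mr1-/- cells and over 1 to 16 (median 6) in Mr1+/+ cells. It was found in 17 of 19 and in 36 of 36 cells. Igfbpl1 (chromosome 4, 45809468 to 45826923, minus strand), a secreted protein of early neuroblasts, was the most abundant of the 7, with a median of 20 UMIs per Mr1-/- cell (0 to 40) and 19.5 per Mr1+/+ cell (1 to 35). The 2 libraries overlapped over nearly their whole range for both genes. Summed over cells, Neurod1 had 840 CPM (counts per 1000000 UMIs) in Mr1-/- and 1345 CPM in Mr1+/+ cells, and Igfbpl1 had 3460 and 4357 CPM.

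Eomes (chromosome 9, 118478212 to 118486132, plus strand) had UMIs in 9 of 19 Mr1-/- cells (47.4%, 95% binomial interval 24.5 to 71.1%) and 13 of 36 Mr1+/+ cells (36.1%, 20.8 to 53.8%). Both Neurod1 and Eomes were detected in 7 Mr1-/- and 13 Mr1+/+ cells, Neurod1 without Eomes in 10 and 23, and Eomes without Neurod1 in 2 and 0. Dcx, the microtubule protein that marks migrating neuroblasts, was thinly captured, with at most 3 UMIs per Mr1-/- cell and 4 per Mr1+/+ cell, and was found in 11 of 19 and 21 of 36 cells. Sox11, a SoxC factor of new neurons, had UMIs in 17 of 19 Mr1-/- and 33 of 36 Mr1+/+ cells, and Tubb3, a neuronal tubulin, in 16 and 35. Among 827 Mr1-/- and 824 Mr1+/+ microglial cells, which should lack these genes and had median depths of 3805 and 4019 UMIs, Neurod1, Eomes and Tac2 were found in 0% and the other 4 in at most 1.21%.

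Tac2 (chromosome 10, 127724478 to 127731768, plus strand), which encodes the neuropeptide precursor of neurokinin B, was unevenly spread. It had UMIs in 6 of 19 Mr1-/- cells and 17 of 36 Mr1+/+ cells, and in 3 of 19 and 14 of 32 after each cell was thinned to 2000 UMIs. The median cell of each library had 0 UMIs. The 2 Mr1-/- cells with at least 5 UMIs held 25 of 34 Tac2 UMIs (73.5%), and the 6 such Mr1+/+ cells held 107 of 121 (88.4%). Eomes was detected in 2 of those 2 Mr1-/- cells and in 3 of those 6 Mr1+/+ cells.

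**Figure D1:**
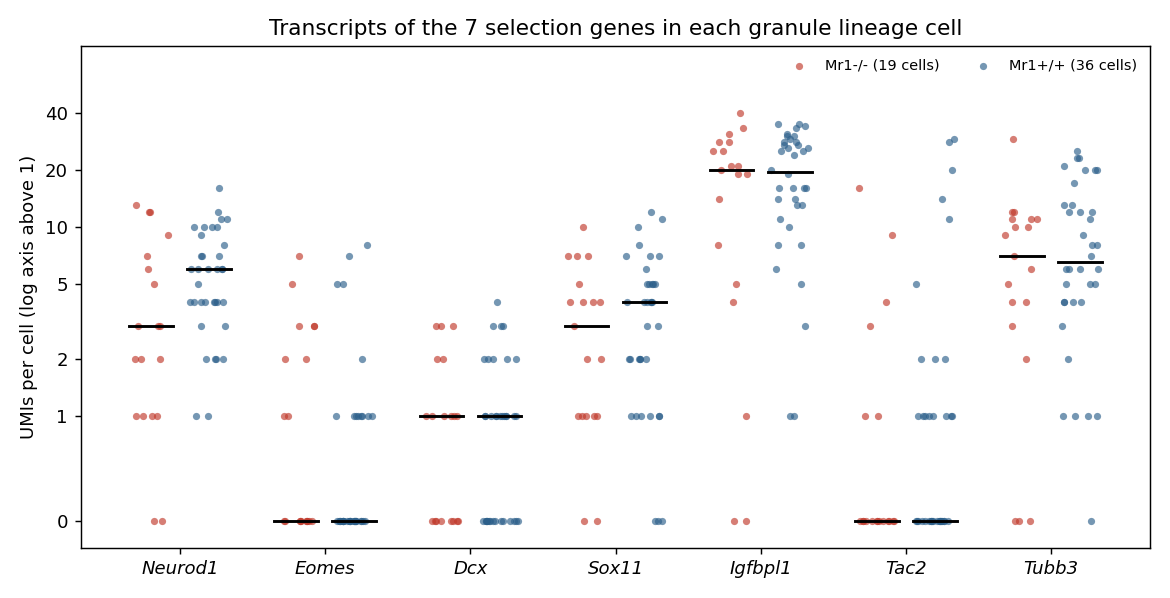
UMIs per cell of the 7 selection genes in 19 Mr1-/- (left of each pair, red) and 36 Mr1+/+ (right, blue) granule lineage cells, on a log axis above 1; 1 point is 1 cell and bars are medians. Igfbpl1 has the highest medians (20 and 19.5 UMIs), while the median of Eomes and Tac2 is 0 in both libraries.

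Cells close to the selection limits were few. Exactly 3 of the 7 genes were detected in 4 Mr1-/- and 2 Mr1+/+ cells, and 15 Mr1-/- and 34 Mr1+/+ cells had at least 4. Just outside, cells that met every other condition but had 2 of the genes numbered 5 Mr1-/- and 4 Mr1+/+, and those with 1 gene numbered 2 and 5. Those with 2 genes held up to 49 UMIs of 8 mature neuron markers in the Mr1-/- library and up to 41 in the Mr1+/+ library. The limit on other cell types' UMIs alone removed 0 Mr1-/- and 3 Mr1+/+ cells.

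The genes that led these cells over all other kept cells follow from the selection and are given as a description. After Igfbpl1, Neurod1 and Tac2 came Calb2 (chromosome 8, 110137502 to 110168210, minus strand), the calcium-binding protein calretinin, with 1234 CPM in Mr1-/- cells and 1717 CPM in Mr1+/+ cells, against 18.5 CPM in all other cells. Mfap4, an extracellular matrix protein, had 283 and 322 CPM against 2.63 CPM. Emx1, a factor of the dorsal telencephalon, had 192 and 279 CPM against 1.82 CPM, and Neurod2, a relative of Neurod1, had 192 and 223 CPM against 1.48 CPM. In Mr1-/- and Mr1+/+ cells, the RNA-binding proteins Elavl2 (334 and 267 CPM) and Rbfox3 (192 and 273 CPM), the microtubule-associated Crmp1 (445 and 440 CPM), the tubulin Tubb2b (4047 and 4940 CPM), the SoxC factor Sox4 (2661 and 2330 CPM), the actin regulator Marcksl1 (2357 and 3031 CPM), the surface protein Cd24a (637 and 868 CPM), the ion transport regulator Fxyd6 (1184 and 1649 CPM) and the synaptic complexin Cplx2 (425 and 273 CPM) completed the 20.

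**Figure D2:**
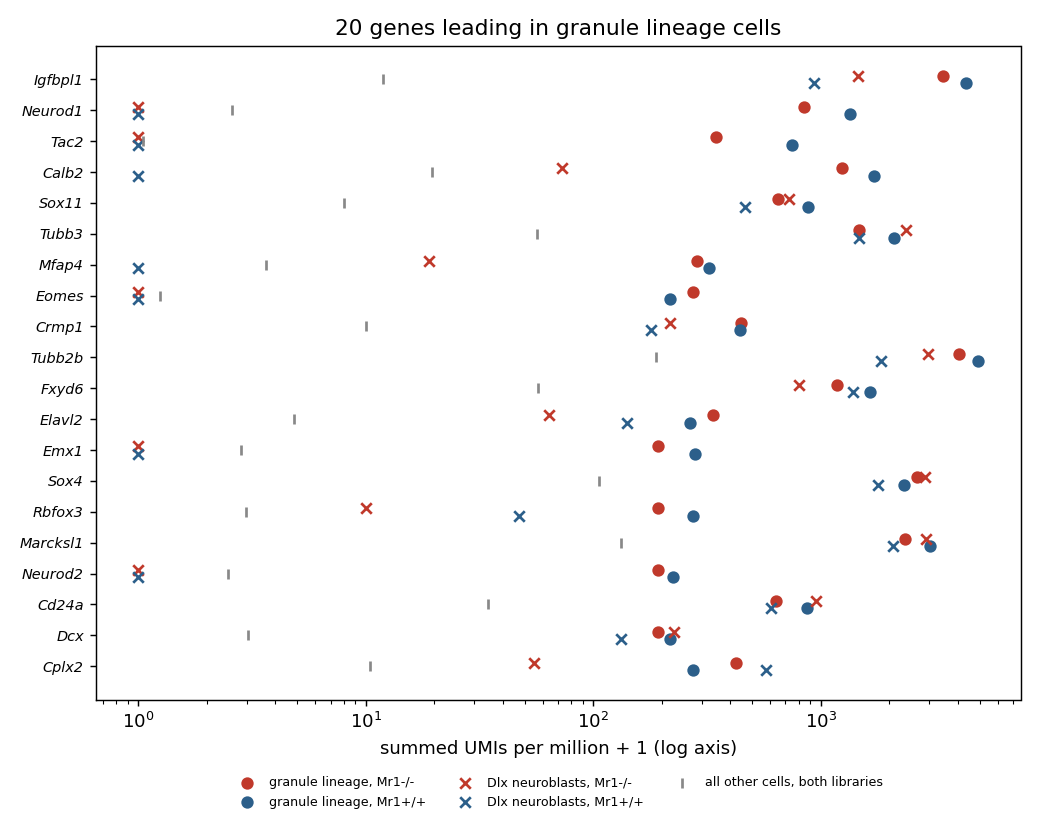
Level of the 20 leading genes as CPM + 1 on a log axis, for granule lineage cells (circles) and Dlx neuroblasts (crosses) of the Mr1-/- (red) and Mr1+/+ (blue) libraries and for all other cells (grey ticks). Tac2, Emx1 and Neurod2 have 0 UMIs in the Dlx neuroblasts of both libraries, and Neurod1 and Eomes have 0 because Dlx neuroblasts were chosen to lack them. Sox4, Marcksl1, Tubb3, Cd24a and Dcx lie within 2-fold of the other kind of neuroblast in each library.

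Promoter sequence is shown for Neurod2 and Tac2, 2 of the leading genes that were at 0 UMIs in Dlx neuroblasts. Both are the 250 bases before the RefSeq transcription start on the gene's own strand (GRCm38.p6), and capitals mark CANNTG, the E-box that basic helix-loop-helix factors such as Neurod1 can bind. The Neurod2 window is chr11:98329646-98329895 (minus strand) and the Tac2 window is chr10:127724228-127724477 (plus strand).
Neurod2: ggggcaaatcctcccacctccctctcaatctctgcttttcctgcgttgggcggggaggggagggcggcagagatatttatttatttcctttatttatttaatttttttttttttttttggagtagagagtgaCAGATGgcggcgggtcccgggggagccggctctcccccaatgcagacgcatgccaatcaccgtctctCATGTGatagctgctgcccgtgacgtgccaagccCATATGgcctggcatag
Tac2: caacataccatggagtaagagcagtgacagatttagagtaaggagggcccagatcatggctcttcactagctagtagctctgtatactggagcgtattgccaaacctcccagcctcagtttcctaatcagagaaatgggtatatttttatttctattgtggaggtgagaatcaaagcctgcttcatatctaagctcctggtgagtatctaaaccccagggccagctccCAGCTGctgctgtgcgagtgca
The search used CANNTG, which reads the same on both strands. It found 3 matches before Neurod2, beginning 118, 51 and 17 bases before the start, and 1 before Tac2, beginning 22 bases before it. This motif occurred in 66.2% of all 32851 such RefSeq windows, and at least 1 window held it for 12 of the 15 leading genes that have one and for 69.3% of all genes, so the matches are a description of these windows. CAGATG, 1 form of this motif and that of the match farthest from the Neurod2 start, was also searched on both strands and occurred in 14.4% of the windows, for 1 of the 15 leading genes (6.67%) and for 16.3% of all genes.

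After the values were seen, 6 Mr1-/- cells were set apart, 4 by 9 or more S phase genes and 2 by lacking Igfbpl1. The limit of 9 lies 1 above the highest Mr1+/+ cell, so the absence of Mr1+/+ cells among the 4 follows from the limit. The main results that rest on the 6 cells are given with and without them. Cells 1, 2, 3 and 14 of the Mr1-/- library, numbered by falling depth, had UMIs of 18, 11, 14 and 9 of 25 S phase genes, where the highest Mr1+/+ cell had 8. They had 11186, 10004, 7038 and 3819 UMIs, against at most 7203 in a Mr1+/+ cell, and gene detection depends on depth. The part of depth in these counts was not tested. Eomes was detected in all 4, with 1, 7, 5 and 3 UMIs. Cell 1 also had UMIs of 29 of 29 G2 and M phase genes, among them 9 UMIs of Top2a (DNA topoisomerase of dividing cells) and 8 of Cdk1 (the mitotic kinase), and 212 UMIs of the histone gene Hist1h2ap. No Mr1+/+ cell had UMIs of more than 3 G2 and M phase genes.

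Neurog2, the proneural factor of excitatory progenitors, had 8 UMIs in cell 1, 25 in cell 3 and 1 in cell 14. Those 3 cells held all 34 Neurog2 UMIs of the Mr1-/- library, and the Mr1+/+ library had 1 Neurog2 UMI in 1 granule lineage cell. Hes6, an inhibitor of Hes1 in neurogenesis, had 13 UMIs in cell 3 and 8 in cell 14. Cell 2 carried 35 UMIs of astrocyte markers beside its 28 Igfbpl1 UMIs, with 16 UMIs of Apoe (lipid carrier) and 8 of Aldoc (aldolase of radial glia and astrocytes). Whether cell 2 holds RNA of more than 1 cell was not tested, and Scrublet did not call it.

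Mr1-/- cells 10 and 12 went against the label. They had 0 UMIs of Igfbpl1 and 1 UMI each of Neurod1 and Sox11, and carried 32 and 20 UMIs of the 8 mature neuron markers, where the highest Mr1+/+ cell had 8. Cell 10 had 27 UMIs of Nrgn (postsynaptic calmodulin-binding protein) and 6 of C1ql3 (secreted synaptic organiser), and cell 12 had 6 and 15, with 5 of C1ql2, a related protein of dentate granule neurons. Both had 12 UMIs of Ncdn (neurochondrin, of mature neurons), and the granule maturation list had 42 and 51 UMIs in them against at most 15 in a Mr1+/+ cell. Leaving out these 6 cells left 13 Mr1-/- and 36 Mr1+/+ cells, each of which had Igfbpl1. All 6 were Mr1-/- cells picked by their transcripts, so ratios without them depend on that choice, and their intervals do not cover it.

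**Figure D3:**
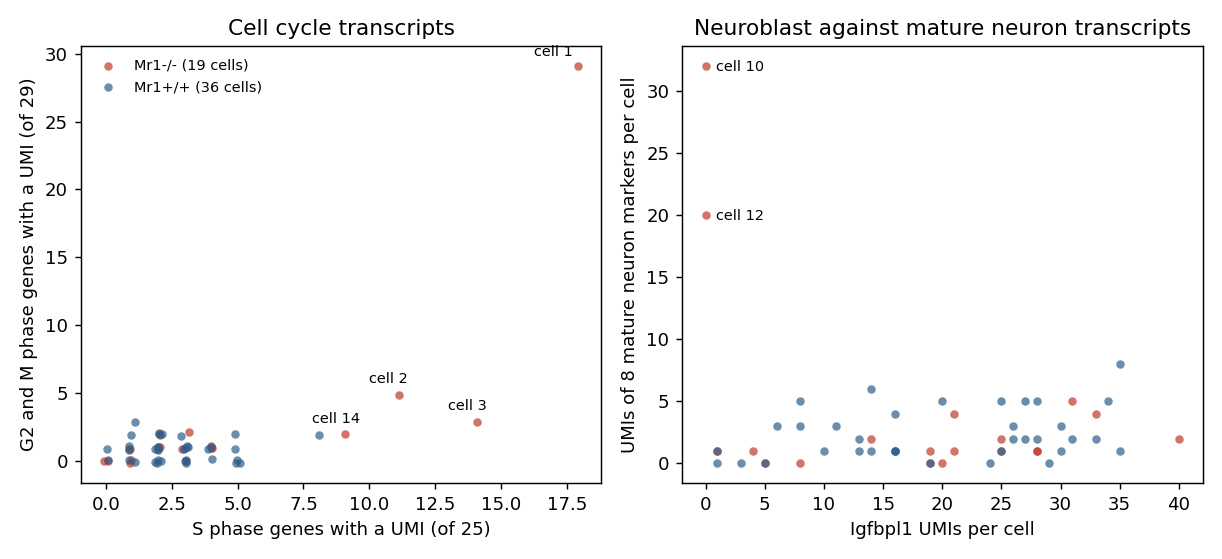
Left, S phase genes (of 25) against G2 and M phase genes (of 29) with a UMI in each Mr1-/- (red) and Mr1+/+ (blue) cell; right, Igfbpl1 UMIs against UMIs of 8 mature neuron markers. Mr1-/- cells 1, 2, 3 and 14 lie at 9 to 18 S phase genes, and Mr1-/- cells 10 and 12 have 0 Igfbpl1 UMIs and 32 and 20 mature neuron UMIs.

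Granule lineage cells made up 0.360% of the kept Mr1-/- cells (95% binomial interval 0.217 to 0.562%) and 0.569% of the kept Mr1+/+ cells (0.399 to 0.787%). The difference was -0.209 percentage points, Mr1-/- minus Mr1+/+, with a 95% Newcombe interval of -0.462 to 0.047 that includes 0. Requiring 4 of the 7 genes gave -0.253 points (-0.493 to -0.014), whose upper bound lies below 0. The interval included 0 with 0 UMIs of other cell types' genes (-0.407 to 0.082) and with at most 5% mitochondrial UMIs (-0.507 to 0.044). It also did so with 1000 or more genes (-0.529 to 0.059) and without Scrublet doublets (-0.493 to 0.039). Dlx neuroblasts lay the other way, at 0.550% of Mr1-/- and 0.379% of Mr1+/+ cells, a difference of 0.170 points (-0.0785 to 0.439). These intervals cover counting error only, and the share of any cell type also depends on dissociation and sorting, whose part was not tested.

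Shares of cells with cell cycle transcripts differed between the libraries by less than their counting error. UMIs of at least 2 G2 and M phase genes were found in 6 of 19 Mr1-/- cells (31.6%, 12.6 to 56.6%) and 8 of 36 Mr1+/+ cells (22.2%, 10.1 to 39.2%), a difference of 9.36 points (-13.3 to 34.1), and UMIs of at least 2 S phase genes in 13 of 19 (68.4%) and 28 of 36 (77.8%), a difference of -9.36 points (-34.1 to 13.3). After each cell was thinned to 2000 UMIs, which left out 4 Mr1+/+ cells, these shares were 3 of 19 and 2 of 32 for G2 and M, and 6 of 19 and 11 of 32 for S. The limit of 9 S phase genes, set after the values were seen and 1 above the highest Mr1+/+ granule lineage cell, was reached by 6 of 29 Mr1-/- and 2 of 24 Mr1+/+ Dlx neuroblasts, and by 4 Mr1-/- and 6 Mr1+/+ cells of other kinds.

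Between the libraries, 1641 genes had at least 50 CPM on average and 30 UMIs in granule lineage cells, and are called tested in the sense of compared. A gene was called past 1.5-fold on the scale log2(CPM + 10). Of these genes 118 were called higher in Mr1-/- cells, which is 7.19% of those tested, and 195 were called lower, which is 11.9%, and the median log2 ratio was -0.07. With median-of-ratios scaling 146 were higher and 160 lower. Without the 6 cells, 111 of 1372 genes were called higher and 138 lower, of which 36 and 77 were also called that way with them, and the median was -0.01.

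S phase genes, which copy DNA, summed to 1781 CPM in Mr1-/- and 700 CPM in Mr1+/+ cells, a ratio of 2.54 (95% conditional binomial interval 1.996 to 3.25), and G2 and M phase genes to 1983 and 204.5 CPM, a ratio of 9.70 (6.68 to 14.5). Of the 196 Mr1-/- UMIs of the second list, 163 came from cell 1. Leaving out the 6 cells gave ratios of 0.870 (0.578 to 1.28) and 1.02 (0.481 to 2.03) for the lists; since 4 of the 6 were set apart by their S phase genes, the lower S phase ratio follows from that choice. Both tested genes of each list were called higher in Mr1-/- cells, namely Dut (a nucleotide pool enzyme) and Mcm6 (of the replication helicase), and Hmgb2 and H2afx (chromatin proteins of dividing cells). Over all tested genes 7.19% were called higher.

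Chromatin genes led the higher end. Hist1h2ap had 223 UMIs in Mr1-/- and 10 in Mr1+/+ cells, a ratio of 36.4 (19.4 to 77.0), and 212 of the 223 lay in cell 1. Hmgb2 had 40 and 6 UMIs (ratio 10.9, 4.59 to 31.4), with 25 in cell 1. Without the 6 cells Hist1h2ap had 9 and 10 UMIs (2.53, 0.909 to 6.92) and Hmgb2 had 5 and 6 (2.34, 0.565 to 9.21). Hmgn2, a nucleosome-binding protein, had 4785 CPM (Mr1-/-) and 2058 CPM (Mr1+/+), a ratio of 2.33 (2.02 to 2.68), and 1672 and 2058 CPM without the 6 cells (ratio 0.812, 0.641 to 1.02). H2afx, Dek, Dut, Nap1l1 and H1fx, which belong to chromatin or replication, had ratios of 5.49, 3.52, 2.49, 2.45 and 2.16. Of these, H2afx, Dut and H1fx had ratios of 1.02, 0.803 and 0.992 without the 6 cells, while Dek stood at 1.51 (0.511 to 4.08) and Nap1l1 at 1.69 (0.751 to 3.62).

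Ncdn, at 273 CPM in Mr1-/- and 80.6 CPM in Mr1+/+ cells, owed 24 of its 27 Mr1-/- UMIs to cells 10 and 12, and had 2 and 13 UMIs without the 6 cells. Zfp326, a zinc finger protein tied to splicing, kept its call in all 13 alternative settings. Some of these could not undo a call, namely leaving out Scrublet doublets, dropping the count filter and adding 1 CPM in place of 10. Others left out overlapping sets of cells. Zfp326 had 28 UMIs in 14 of 19 Mr1-/- cells and 15 UMIs in 11 of 36 Mr1+/+ cells, with at most 5 and 2 UMIs per cell. Its ratio was 3.05 (1.57 to 6.14), and 3.18 (1.496 to 6.85) without the 6 cells. Nisch, an imidazoline receptor relative, had 26 and 17 UMIs (ratio 2.50, 1.30 to 4.90), and 1.82 (0.770 to 4.12) without the 6 cells. Both are widely expressed, at 45.7 CPM for Zfp326 and 119.5 CPM for Nisch in all other cells.

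At the lower end, the 11 named genes other than Tac2 had at most 62 UMIs in either library. Nhlh1, a helix-loop-helix factor of postmitotic neuroblasts, had 9 UMIs in 7 Mr1-/- cells and 34 in 20 Mr1+/+ cells, a ratio of 0.432 (0.182 to 0.920), and 0.579 (0.216 to 1.33) without the 6 cells. The uridine and adenosine transporter Slc29a1, the ubiquitin ligase Znrf1, the mitochondrial protein Stoml2, the glutathione-binding Lancl1, the cytosolic enzyme Idh1, the transcription activator Camta1 and the amyloid precursor-binding Apbb1 had ratios of 0.384 to 0.445. The proteasome subunits Psma4 (0.435, 0.210 to 0.837) and Psmc1 (0.445, 0.187 to 0.951) and the neuronal transcript 6330403K07Rik (0.448, 0.245 to 0.775) lay in the same range. Of the 12 genes, 10 kept the call in at least 12 of the same 13 alternative settings, some of which could not undo a call. Without the 6 cells the intervals of Slc29a1, Znrf1, Idh1, Nhlh1, Psmc1 and Lancl1 reached 1 or more. Tac2 had 344 CPM (Mr1-/-) and 750 CPM (Mr1+/+), a ratio of 0.459 (0.304 to 0.676), and 0.766 (0.505 to 1.13) without the 6 cells. Neurod1, also past 1.5-fold lower (0.624, 0.479 to 0.808), stood at 0.997 (0.759 to 1.30) without them. Tac2 and Neurod1 helped to choose the cells, so their ratios describe the choice and are no separate result. Both count among the 195 genes called lower.

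**Figure D4:**
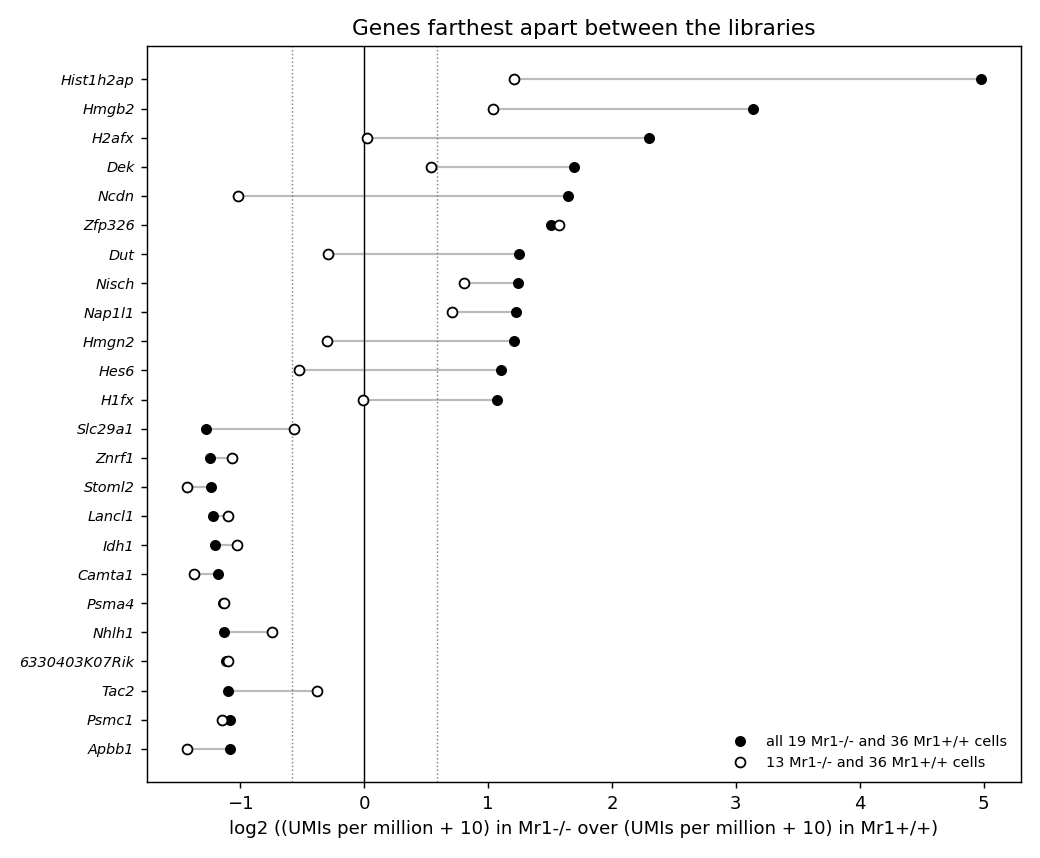
Log2 ratio of CPM + 10, Mr1-/- over Mr1+/+, for the 12 highest and 12 lowest named genes with all 19 Mr1-/- and 36 Mr1+/+ cells (filled) and with 13 and 36 cells (open); dotted lines mark 1.5-fold. Hist1h2ap and Hmgb2 move toward 0 and stay above it, with ratio intervals in the 13 and 36 cells that include 1 (0.909 to 6.92 and 0.565 to 9.21). Ncdn, Hmgn2, Dut, Hes6 and H1fx change side, and Zfp326 and all 12 lower genes stay on their side.

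By stage, transcripts of neural stem cells (19 genes) summed to 1093 CPM in Mr1-/- and 552 CPM in Mr1+/+ cells, a ratio of 1.98 (1.48 to 2.65), of which cell 2 gave 48 of 108 Mr1-/- UMIs. Of its 3 tested genes Apoe was called higher, as were 7.19% of all tested genes, and Vim (intermediate filament of radial glia) and Slc1a3 (glial glutamate transporter) were not. The summed ratio was 0.600 (0.345 to 0.992) once the 6 cells were left out. Without the 4 Mr1-/- cells with 9 or more S phase genes, this list kept 21 of its 108 Mr1-/- UMIs. The lower ratio thus follows largely from which cells were left out. Genes of intermediate progenitors (9 tested) had 3 called higher, Neurog2, Insm1 (a zinc finger factor of dividing progenitors) and Hes6, and 1 lower, Rcor2, a REST corepressor relative. Over all tested genes 7.19% were called higher and 11.9% lower. Insm1 had 23 UMIs in 8 Mr1-/- cells and 10 in 8 Mr1+/+ cells (ratio 3.75, 1.72 to 8.84). Once the 6 cells were left out, 0 of 7 tested genes of the intermediate progenitor list were called, against 8.09% higher and 10.1% lower over all genes.

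Neuroblast genes (13 tested, rule genes left out) had 0 called higher and 3 lower, against 7.19% and 11.9% of all tested genes, with a median log2 ratio of -0.44 against -0.07 over all genes. Stmn2, a microtubule destabiliser of growing axons, ranged over 0 to 13 UMIs per cell (median 3) in Mr1-/- cells and over 0 to 22 (median 5) in Mr1+/+ cells. Its summed ratio was 0.474 (0.345 to 0.641), and 0.786 (0.570 to 1.07) without the 6 cells. Sema3c, a secreted guidance cue, had 142 and 291 CPM (0.486, 0.247 to 0.898), and Nhlh1 was the third. The median of the list was 0.21 without the 6 cells, and Calb2, at a ratio of 0.719 (0.576 to 0.893) before, stood at 1.24 (0.992 to 1.54).

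Genes of granule neuron identity and maturation (5 tested) had 0 called either way, against 7.19% higher and 11.9% lower over all tested genes. Prox1 was detected in 13 of 19 Mr1-/- cells and 16 of 36 Mr1+/+ cells, with at most 2 and 5 UMIs per cell, and 162 and 198 CPM. Of the 22 genes of this list 5 were at 0 UMIs in Mr1-/- cells and 13 in Mr1+/+ cells, while Gria2 (38 and 59 UMIs), Kcnk1 (20 and 46) and Rbfox3 (19 and 44) were among those found in both. The Mr1+/+ cells had 0 UMIs of C1ql2, C1ql3 and the vesicular glutamate transporter Slc17a7. The Mr1-/- library had 7 UMIs of C1ql2, 21 of C1ql3 and 4 of Slc17a7, each in 2 cells. Cells 10 and 12 held all of the C1ql3 and Slc17a7 UMIs, and 42 and 51 of the list's 199 Mr1-/- UMIs. The list's summed ratio was 1.30 (1.07 to 1.57) with all cells. It was 0.765 (0.603 to 0.963) without cells 10 and 12, and 1.09 (0.853 to 1.38) without the 6 cells.

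Of 26 tested genes of migration and the growth cone cytoskeleton, 1 was called higher, Ank3 (ankyrin G), and 4 lower, the stathmins Stmn2, Stmn3 and Stmn4 and the adhesion molecule Ncam1, against 7.19% and 11.9% of all tested genes. Ncam1 had 425 CPM in Mr1-/- and 719 CPM in Mr1+/+ cells (0.591, 0.405 to 0.848). The list's median was -0.22. In the 13 and 36 remaining cells 4 genes were called higher and 0 lower, against 8.09% and 10.1% of all genes tested there, and the median was 0.14. With all cells, of 10 tested SoxC and chromatin genes 1 was called higher, Hmgn2, and 0 lower, against 7.19% and 11.9%. Sox4 stood at a ratio of 1.14 (0.972 to 1.34).

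Metabolic and stress lists are read against the same 7.19% higher and 11.9% lower. Nuclear genes of oxidative phosphorylation had 2 of 34 called higher (Uqcrq and Atp5k) and 1 lower (Ndufc1), with a median of 0.06, and heat shock genes had 0 of 9 called. Of the 34, 0 were called higher and 6 lower without the 6 cells, against 8.09% and 10.1% of all genes tested there. Glycolysis genes, with a median of 0.45 and a summed ratio of 1.39 (1.23 to 1.58), had 2 of 8 called higher, Gapdh at 1993 and 1264 CPM (1.58, 1.29 to 1.93) and Pgk1 at 233 and 143 CPM (1.63, 0.875 to 3.04). In the 13 and 36 remaining cells the summed ratio was 1.09 (0.928 to 1.29), Gapdh, at 1515 and 1264 CPM, had a ratio between 0.921 and 1.55, and Pgk1 stood at 1.47 (0.665 to 3.07). In lipid synthesis and transport, with 2 of 4 tested genes called lower and 1 higher, Fabp5, a fatty acid carrier, was called lower at 981 and 1543 CPM (0.636, 0.498 to 0.807), as was Hmgcs1 of cholesterol synthesis, and Apoe was called higher. Once the 6 cells were left out, Fabp5 stood at 0.824 (0.626 to 1.07), Hmgcs1 at 0.255 (0.0501 to 0.814) and Apoe at 0.648 (0.119 to 2.36). MHC class I genes had 11 UMIs in Mr1-/- and 20 in Mr1+/+ cells, and interferon response genes 11 and 27, too few for any gene of either list to be tested. Of the 27 interferon response UMIs, 14 lay in 1 Mr1+/+ cell. Among other lists, immediate early genes had 1 of 4 called higher (Jun) and the Notch list 1 of 1 (Hes6), growth factor receptors had 1 of 1 lower (Fgfr1, at 0.628, and 0.937 without the 6 cells), and 0 of 1 glutamate receptor genes (Gria2) and 0 of 1 glucocorticoid-induced genes (Ddit4) were called.

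Against Dlx neuroblasts (29 Mr1-/- and 24 Mr1+/+ cells, median depths 2476 and 2714.5 UMIs), 52 of 1543 tested genes, 3.37%, were past 2-fold higher in granule lineage cells in both libraries, and 34, 2.2%, were past 2-fold lower. Genes used to choose either group were left out. The deepest Mr1+/+ Dlx neuroblast held 28784 of the 129491 UMIs of its group, and the deepest Mr1-/- one held 11622 of 111444. Such cells weigh heavily in summed levels. Mature neuron markers summed to 691 CPM in Mr1-/- and 4919 CPM in Mr1+/+ Dlx neuroblasts, and the granule maturation list to 350 and 2579 CPM. Bhlhe22, a helix-loop-helix factor, had 21 UMIs in granule lineage cells and 0 in Dlx neuroblasts of the Mr1-/- library, and 47 and 0 in the Mr1+/+ library, at least 7.89-fold and 12.6-fold higher when 0 is taken as 3 UMIs per library. Emx1 had 19 and 0, and 45 and 0 UMIs. Zbtb18, a transcriptional repressor, had 27 and 3, and 51 and 0 UMIs. Lhx2, a LIM factor of the cortex and hippocampus, had 384.5 and 44.9 CPM in the Mr1-/- library and 545 and 23.2 CPM in the Mr1+/+ library.

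Calb2 had 122 UMIs in Mr1-/- granule lineage cells and 8 in Mr1-/- Dlx neuroblasts, and 277 and 0 UMIs in the Mr1+/+ library. Igsf8, an immunoglobulin family protein, had 1093 and 89.7 CPM in the Mr1-/- library and 1078 and 84.95 CPM in the Mr1+/+ library, the netrin receptor family member Neo1 had 182 and 8.97 CPM, and 248 and 15.4 CPM, and the ephrin receptor Epha4 had 263 and 26.9 CPM, and 235.5 and 7.72 CPM. Enc1, an actin-binding protein, and Mfap4 completed the 10. Of the granule identity list 3 of 5 tested genes were higher (Gria2, Kcnk1 and Rbfox3), and of the neuroblast list 3 of 11 (Bhlhe22, Calb2 and Sema3c), against 3.37% of all tested genes.

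Of the GABAergic interneuron list 4 of 5 tested genes were lower in granule lineage cells and 0 were higher, against 2.2% and 3.37% of all tested genes. Among them Meis2, a homeobox factor, had 1 UMI in granule lineage cells and 114 in Dlx neuroblasts of the Mr1-/- library, and 0 and 86 UMIs in the Mr1+/+ library. Dlx6os1, a non-coding RNA of the Dlx5 and Dlx6 locus, had 0 and 37, and 0 and 43 UMIs, and Pbx3 had 0 and 33, and 0 and 34 UMIs. Gad1, which makes GABA, had 1 and 26, and 0 and 52 UMIs. Nrxn3, Gng3, Tiam2 and Mpped2 were also among the lowest. The overall cytoskeleton did not separate the kinds of neuroblast by this measure. Of 26 genes 2 were higher (Crmp1 and Cxadr) and 1 lower (Dclk2), against 3.37% and 2.2% of all tested genes. Of 34 oxidative phosphorylation genes 0 were called either way. With cells thinned to 2000 UMIs, 468 genes could be tested and 11 were higher and 13 lower, 8 and 10 of them also called in full data.

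Among themselves the granule lineage cells were divided by Eomes. The 9 Mr1-/- and 13 Mr1+/+ cells with an Eomes UMI had median depths of 5780 and 5438 UMIs, and the 10 and 23 cells without had 4166 and 4037, and detection of a thin transcript depends on depth. Of 1634 tested genes, 19 (1.16%) were past 2-fold higher in the cells with Eomes in both libraries and 25 (1.53%) were lower. Of the 6 cells set apart, cells 1, 2, 3 and 14 had Eomes, and cells 10 and 12, which carried mature neuron transcripts, did not. Without the 6 cells, 14 and 15 of 1365 genes were called, 8 and 15 of them also called with all cells. Thinned to 2000 UMIs, when 532 genes could be tested, 8 were higher and 7 lower, and 2 each way were also called in full data.

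Among the genes higher with Eomes, Ccnd2, the cyclin of neural progenitors, had 384 CPM with Eomes and 24.1 CPM without in the Mr1-/- library, and 311 and 88.3 CPM in the Mr1+/+ library. Hmgn2 had 7736 and 722 CPM, and 3436 and 982 CPM. Elavl4, an RNA-binding protein of new neurons, had 384 and 48.1 CPM, and 424 and 110 CPM. Dbi, an acyl-CoA-binding protein of progenitors, had 646 and 96.2 CPM, and 311 and 121 CPM, and Kif5b, a kinesin, H2afy2, a macroH2A histone, Psmd12 and Rab1a were called with and without the 6 cells. In the Mr1-/- library without the 6 cells the levels were 79.3 and 31.1 CPM for Ccnd2, on 2 and 1 UMIs, 2855 and 745 CPM for Hmgn2, 198 and 93.1 CPM for Dbi, and 317 and 62.1 CPM for Elavl4. Vim had 15 UMIs with Eomes and 1 without in the Mr1-/- library and 20 and 1 in the Mr1+/+ library. Without the 6 cells it had 1 and 1 UMIs in the Mr1-/- library. The growth factor Mdk (1222 and 313 CPM, and 1131 and 298 CPM) and the matrix protein Mfap2 (402 and 96.2 CPM, and 368 and 99.3 CPM) were called with all cells only.

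Among the genes lower with Eomes, Ank3 had 34.9 CPM with Eomes and 601 CPM without in the Mr1-/- library, and 28.3 and 232 CPM in the Mr1+/+ library. Gap43, the growth cone protein, had 17.5 and 313 CPM, and 56.55 and 143.5 CPM, and Stmn4, a neuronal stathmin, 87.3 and 746 CPM, and 325 and 795 CPM. Bhlhe22 had 52.4 and 433 CPM, and 113 and 430 CPM. Nell2, a secreted neuronal glycoprotein, had 52.4 and 313 CPM, and 28.3 and 243 CPM. In Mr1-/- cells with Eomes these levels rest on 2 UMIs for Ank3, 1 for Gap43, 5 for Stmn4, and 3 each for Bhlhe22 and Nell2. The Mr1-/- cells without Eomes include cells 10 and 12. Ank3 had 25 UMIs in those without Eomes, and 15 over all Mr1-/- cells left without the 6. The potassium channel Kcnk1, the AMPA receptor auxiliary subunit Cnih3, the axon protein Islr2, the transporter Slc29a1, the factors Jun and Zfpm2, the autophagy genes Sqstm1 and Rb1cc1, and Aph1a and Rp9 were also called with and without the 6 cells.

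Calb2 was lower with Eomes, at 664 and 2020 CPM in the Mr1-/- library and 919 and 2340 CPM in the Mr1+/+ library, and so was Neurod2, at 87.3 and 337 CPM, and 113 and 309 CPM. Both were short of 2-fold in the Mr1-/- library without the 6 cells. Neurod1, which every cell without Eomes must have under the selection, was at 768 and 938 CPM, and 1188 and 1468 CPM. Prox1 had 3 UMIs with Eomes and 29 without in the Mr1+/+ library, and 8 and 8 in the Mr1-/- library. Tac2 was higher with Eomes in both libraries, at 524 and 96.2 CPM, and 1018 and 541 CPM, and short of 2-fold in the Mr1+/+ library.

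**Figure D5:**
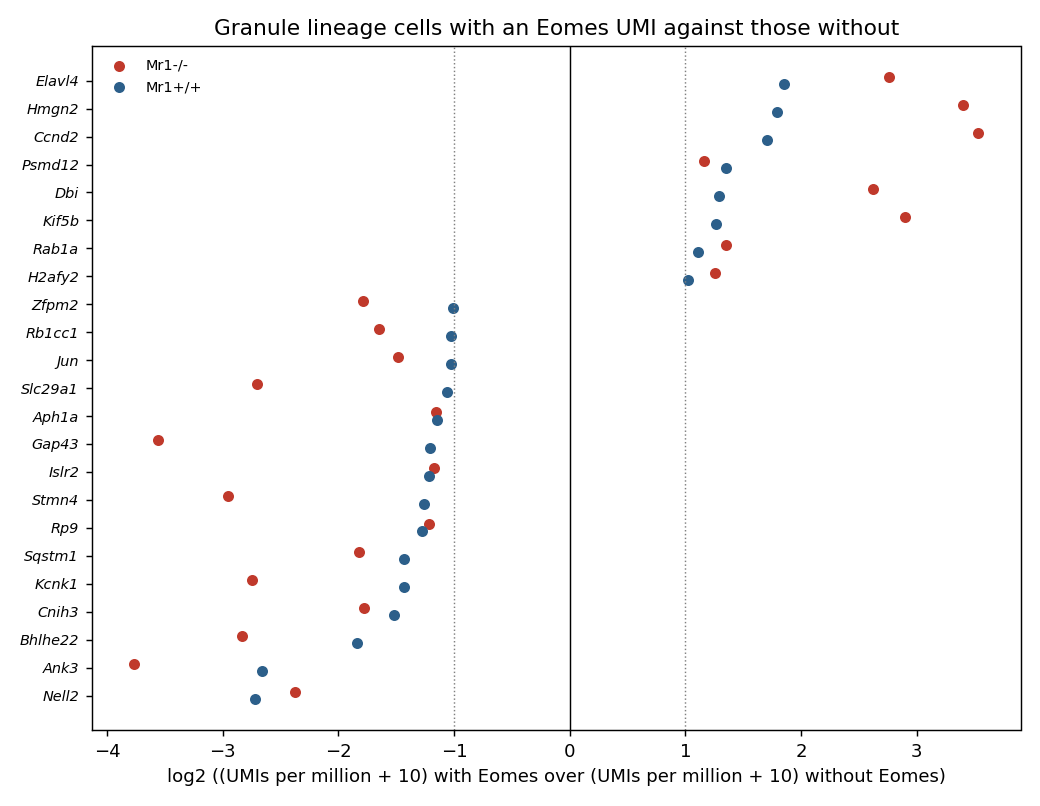
Log2 ratio of CPM + 10 in cells with an Eomes UMI over cells without, in the Mr1-/- (red) and Mr1+/+ (blue) libraries, for the 23 genes called with and without the 6 cells, plotted for all cells; dotted lines mark 2-fold. The 8 genes from Elavl4 to H2afy2 are higher and the 15 from Zfpm2 to Nell2 are lower with Eomes in both libraries.

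Markers of most other cell types were lower in granule lineage cells than in the other cells of their library, and those of mature neurons were higher. Of 7 microglial markers left after the selection gene C1qa was set aside, 5 were at 0 in Mr1-/- cells and 3 in Mr1+/+ cells, with summed levels of 20.2 and 74.4 CPM against 11450 and 9046 CPM in the other cells of each library. Oligodendrocyte markers summed to 91.1 and 112 CPM against 13640 and 16500 CPM, and Cajal-Retzius genes to 3 and 5 UMIs. Endothelial markers summed to 637 and 638 CPM, against 13910 and 10690 CPM in other cells. Astrocyte markers summed to 506 CPM (Mr1-/-) and 204.5 CPM (Mr1+/+), a ratio of 2.47 (1.56 to 3.96), against 1392 and 2300 CPM in other cells. Mature neuron markers summed to 789 and 527 CPM (1.498, 1.09 to 2.06), against 242.5 and 359 CPM in other cells. Without the 6 cells these ratios were 0.851 (0.374 to 1.77) and 0.760 (0.458 to 1.22), which depend on leaving out Mr1-/- cells only.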

How the data were processed

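The authors deposited unnormalized UMI counts, with a gene and a barcode for each value, for 1 Mr1-/- and 1 Mr1+/+ library. The matrix header names Cell Ranger 3.1.0, and Cell Ranger 5.1.0, STAR and mm10 are named per the submitters' processing notes. No source used here names the annotation behind the counts. Gene positions come from GENCODE M21 (mm10), in which 30934 of 31053 gene IDs were found, and promoters from RefSeq (GRCm38.p6).

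UMI counts were summed over granule lineage cells per library and scaled to CPM. Ratios are Mr1-/- over Mr1+/+ with exact 95% conditional binomial intervals, shares have exact (Clopper-Pearson) 95% binomial intervals, and differences of shares have Newcombe intervals. All of these, and the limit of 3 counts for a 0, cover counting error only. Genes needed a mean of 50 CPM, with 30 UMIs between libraries, 30 UMIs over both libraries in the Eomes comparison, and 60 over the 4 groups in the Dlx comparison. Calls used log2 ratios of CPM + 10. Cells of 1 library are not replicates, so no significance test was made; genes past these limits are called tested.

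The members, gene lists and settings were chosen with earlier results of these data known. Named genes were the 7 selection genes, the 20 leading genes seen in at least 20% of the cells of each library, the 12 highest and 12 lowest between libraries (mean of 100 CPM, 40 UMIs, 10 cells, and at least the level of other cells; mitochondrial, ribosomal, haemoglobin and sex-linked genes left out), 10 each way against Dlx neuroblasts, up to 6 per list, and Mr1. A few genes that these rules name are not reported here. Genes named for single cells and for Eomes, and the 6 cells set apart, were chosen after their values were seen. Dlx neuroblasts had a UMI of Dlx1 or Dlx2, UMIs of 3 of Dlx1, Dlx2, Dcx, Sox11, Tubb3, Gad2 and Sp9, none of Neurod1, Eomes or Reln, and the same limit on other types. Microglial cells had at least 3 C1qa UMIs and 4 of 8 markers. Aldoa was left out of its list because several gene IDs share its symbol. Scrublet (expected rate 0.05) marked doublets without removing them. Python 3.11.15 was used with NumPy 2.4.6, SciPy 1.17.1, pandas 2.3.3, scanpy 1.11.5 and matplotlib 3.10.9, and the scripts were tested on simulated data.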

Additional observations from a re-analysis of the deposited data

How the results depend on the processing

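No paired analysis was possible because each genotype has 1 library. The limits come from few cells, 19 Mr1-/- and 36 Mr1+/+ cells with 98841 and 161344 UMIs, so a gene near 50 CPM has few UMIs. Leaving out cells by S phase genes (-0.285 points) or by Igfbpl1 (-0.247 points) removed only Mr1-/- cells, so it could only make the share difference more negative. In the other selections tried the share difference kept its sign, at -0.256 to -0.165 points. The called counts moved by over 1.5 times as follows. With no filter on low counts 2745 genes were called higher and 3029 lower, and with cells thinned to 2000 UMIs, when 537 genes could be tested, 42 and 57. Without cells with 2 or more G2 and M phase genes 129 were lower, of 1076 tested. Against Dlx neuroblasts, 1.5-fold gave 96 higher and 79 lower, and thinning 11 and 13. With thinning, 8 genes were higher and 7 lower with Eomes, and without the 6 cells 15 were lower.

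Among the settings tried, named genes called between the libraries changed the sign of their log2 ratio only in the settings that left out cells. Without the 3 deepest cells of each library the log2 ratios were -0.010 for H2afx, -0.38 for Dut, -0.11 for H1fx, -0.52 for Apoe and -0.010 for Mcm6. Without cells with 2 or more G2 and M phase genes they were -0.44 for Dut, -0.33 for Hmgn2, -0.83 for Hes6, -0.42 for Apoe, -0.86 for Neurog2 and -0.42 for Mcm6. Without the 4 cells with 9 or more S phase genes they were -0.16 for H2afx, -0.49 for Dut, -0.43 for Hmgn2, -0.72 for Hes6, -0.11 for H1fx, -0.72 for Apoe, -0.70 for Neurog2 and -0.82 for Mcm6. Without all 6 cells they were -0.26 for Cplx2, -1.02 for Ncdn, -0.29 for Dut, -0.30 for Hmgn2, -0.53 for Hes6, -0.012 for H1fx, -0.54 for Apoe, -0.70 for Neurog2 and -0.64 for Mcm6. Ncdn stood at -1.01 when 4 of the 7 genes were required and at -1.06 without cells 10 and 12. The settings that leave out cells by S phase genes or Igfbpl1 were chosen after seeing the data.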
